A study of Rattus norvegicus with 2 samples.

Results

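The rat X chromosome carries a short run of neighbouring miRNA genes, miR-322, miR-503, miR-351, miR-542 and miR-450a, and the array used here has 7 rows for their products, out of 350 rat miRNAs. The 7 rows, rno-miR-322, rno-miR-322*, rno-miR-503, rno-miR-351, rno-miR-542-3p, rno-miR-542-5p and rno-miR-450a, were taken by name. This set was selected on the detection flags and signals of these same 2 arrays, as neighbouring genes of which several had been detected after injury only, so those values are a description and carry no test. The study asked which miRNAs differ in an artery that is being remodelled after injury. Male Sprague-Dawley rats of about 250 g gave total RNA from a carotid artery that was either uninjured or had been injured with a balloon catheter 10 days earlier, a procedure that removes the endothelial lining and overstretches the media. No further treatment or genetic change is given for either group. There was 1 array per group, so no value has a replicate error, and every difference below is between these 2 arrays. The sources used here do not give the number of rats behind each RNA sample, or whether the uninjured artery came from the same animal.

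A miRNA is cut from a hairpin precursor, and either arm of the hairpin can be loaded into the silencing complex, where bases 2 to 8 of the miRNA, its seed, pair with target mRNAs. miR-322 is the rodent counterpart of human miR-424. Together with miR-503 it is known for repressing cell-cycle genes such as cyclin D1 and Cdc25a, and both are induced when myoblasts leave the cell cycle. miR-542-3p is known to repress survivin, an inhibitor of apoptosis. After balloon injury, smooth muscle cells of the carotid artery re-enter the cell cycle and build a neointima, which is the setting in which the miRNAs were measured.

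The mature sequences are shown because the seeds decide which members belong to 1 target family. Which probes face a near copy depends on the whole sequence. The sequences are from RefSeq (GRCr8), 5′ to 3′, with the seed in capitals. The array names miR-542-3p and miR-542-5p state the arm. For the other 5 names the arm is not stated in the deposited files, and the arm shown is the one the older name usually denotes: the 5p arm for names without a mark, and the 3p arm for miR-322*.
miR-322-5p: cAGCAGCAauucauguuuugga
miR-503-5p: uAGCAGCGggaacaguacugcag
miR-322-3p: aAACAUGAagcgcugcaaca
miR-351-5p: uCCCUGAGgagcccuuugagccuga
miR-542-3p: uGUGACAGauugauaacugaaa
miR-542-5p: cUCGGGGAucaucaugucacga
miR-450a-5p: uUUUGCGAuguguuccuaaugu

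Only miR-322 and miR-351 had seed relatives elsewhere on the array. The seed of miR-322-5p is that of the miR-15 and miR-16 family, and 4 other RefSeq rat miRNAs with it have a row on the array. The seed of miR-503-5p matches it at 6 of 7 bases, the difference being A8G, with the base of miR-322-5p written before the position and positions counted from the 5′ end of the miRNA. Outside the seed they part, so that 11 of the 22 bases compared differ. The seed of miR-351-5p is that of the miR-125 family. The relatives are shown for comparison.
miR-16-5p: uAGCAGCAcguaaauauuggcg
miR-15b-5p: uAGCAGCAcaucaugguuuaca
miR-125b-5p: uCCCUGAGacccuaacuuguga
miR-450b-5p: uUUUGCGAuguguuccuaaua

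miR-450a-5p has a near copy within the cluster itself. Its neighbour miR-450b-5p, which has no row on the array, shares the seed and 20 of the 21 bases compared, the difference being G21A (miR-450a base before the position). The probe named miR-450a therefore cannot be assumed to separate them, and its signal may be that of either or both. The seeds of miR-322-3p, miR-503-5p, miR-542-3p and miR-542-5p were each found in 1 RefSeq rat miRNA only.

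The hairpins lie on the minus strand at chrX:137720933-137726241 (GRCr8), within 5309 bp. In the direction of transcription their order is Mir322, Mir503, Mir351, Mir542, Mir450b-1 and Mir450a1. Mir503 begins 315 bp after the start of Mir322, Mir351 begins at 1045 bp, Mir542 at 3987 bp and Mir450a1 at 5218 bp. The long noncoding RNA gene LOC102550366, at chrX:137724960-137729208, spans the 3 hairpins Mir322, Mir503 and Mir351. Mir542 and both Mir450 hairpins lie outside it. Whether the hairpins fall in its exons or introns, and its strand, were not looked up, since the gene table used has neither. The nearest protein-coding genes are Plac1, 14.7 kb away on the side of Mir322, and Hprt1, 33.2 kb away on the side of Mir450a1.

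**Figure D1:**
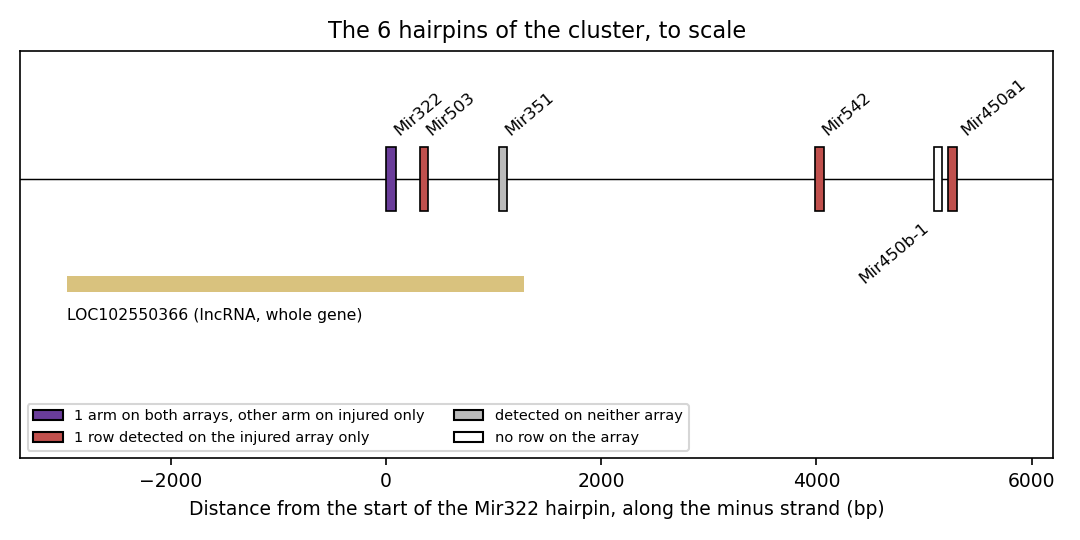
Map of the 6 hairpins drawn to scale, as distance in bp from the start of the Mir322 hairpin along the minus strand, with the lncRNA gene LOC102550366 as a bar. Colours give detection on the 2 arrays. Mir351, the only hairpin of the 5 with an array row that was detected on neither array, lies between Mir503 and Mir542, each with a row detected on the injured array only.

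Detection here means that the deposited flag was 1. Of the 350 miRNAs, 166 (47.4%) were detected in the uninjured and 184 (52.6%) in the injured artery, and of the 7 members 1 and 5. The flag is not a plain cutoff in signal. On the uninjured array detected signals began at 3.43 and undetected signals reached 8.84, and on the injured array the corresponding values were 1.36 and 5.98. The 7 negative control features reached 8.19 (uninjured) and 4.92 (injured). Signal also depends on the probe, so a signal is set only against the same miRNA on the other array and against these limits. A fold change below follows scaling of each array to its 75th percentile over the 158 miRNAs detected on both. Where a miRNA was detected on 1 array only, the fold is a bound, taken against the lowest signal detected on the other array or, if higher, the undetected signal that the miRNA itself had there.

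rno-miR-322, with the seed of the miR-15 and miR-16 family, was the only member detected on both arrays. Its signal was 41.7 in the uninjured artery and 67.9 in the injured artery, well clear of the undetected range on each. This is 1.73-fold higher after injury, or 0.79 on the log2 scale. The 158 miRNAs detected on both arrays had a median log2 ratio of 0.14 and quartiles of -0.14 and 0.58, and 26 of them had a higher ratio than miR-322. The log2 ratio of miR-322 was 0.20 with the arrays aligned at the control features, the lowest of 6 scalings, so its direction did not change but the size is not settled.

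rno-miR-503, the partner of miR-322 in repressing cell-cycle genes, had a signal of 1.02 (not detected) in the uninjured and 15.9 (detected) in the injured artery. The uninjured signal lay under the lowest detected one, and the injured signal lay above all undetected ones. With the main scaling the bound was 4.93-fold higher after injury, and it was 3.27-fold under the lowest of the scalings. With the main scaling and limit this was the highest bound among the members, but the order depended on the limit. Against the highest undetected signal in place of the lowest detected one, the bound was 1.91-fold, under the 1.93-fold of miR-450a.

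rno-miR-450a, perhaps not separated from miR-450b, had a signal of 4.82 (not detected) in the uninjured and 16.0 (detected) in the injured artery. The uninjured signal fell where detected and undetected miRNAs overlap, unlike that of miR-503, and so served as its own limit. The bound was 3.53-fold higher after injury, 2.35-fold under the lowest of 6 scalings, and 1.93-fold against the highest undetected signal.

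rno-miR-542-3p, the arm known to repress survivin, had a signal of 1.72 (not detected) in the uninjured and 9.85 (detected) in the injured artery. The bound was 3.05-fold higher after injury, and 2.02-fold under the lowest of 6 scalings. It was only 1.18-fold against the highest undetected signal, because the injured signal lay just above the 8.84 that undetected miRNAs reached on the uninjured array. The opposite arm, miR-542-5p, was detected on neither array, with signals of 2.11 and 3.07. Both arms are shown in capitals on the RefSeq hairpin, the 5p arm first, because they are cut from 1 precursor and were called differently here.
Mir542: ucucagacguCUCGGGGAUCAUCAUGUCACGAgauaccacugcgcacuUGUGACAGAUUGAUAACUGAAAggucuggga

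rno-miR-322*, the passenger strand of the miR-322 hairpin, had a signal of 0.709 (not detected) in the uninjured and 5.51 (detected) in the injured artery. The injured signal was above the negative control features of its array but under the highest undetected miRNA there, which makes this the least secure of the 4 detections. The bound was 1.71-fold higher, and 1.13-fold under the lowest of 6 scalings. No bound above 1 remained against the highest undetected signal. The hairpin is shown for the same reason as that of miR-542, with both arms in capitals and the 5p arm first.
Mir322: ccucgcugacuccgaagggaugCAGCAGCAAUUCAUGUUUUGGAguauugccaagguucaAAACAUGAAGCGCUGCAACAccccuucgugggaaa

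rno-miR-351, which shares the seed of the miR-125 family, was detected on neither array. Its uninjured value is listed at exactly 1, as are those of 109 miRNAs on each array, and its injured signal was 0.579. No ratio is given here for miR-351 or miR-542-5p. These values bound only what these probes could register and do not show that the miRNAs are absent. In the RefSeq sequences shown, G and C make up 15 of 25 bases of miR-351-5p and 54.5% of miR-542-5p, and from 31.8% (miR-542-3p) to 56.5% (miR-503-5p) in the 5 detected members.

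**Figure D2:**
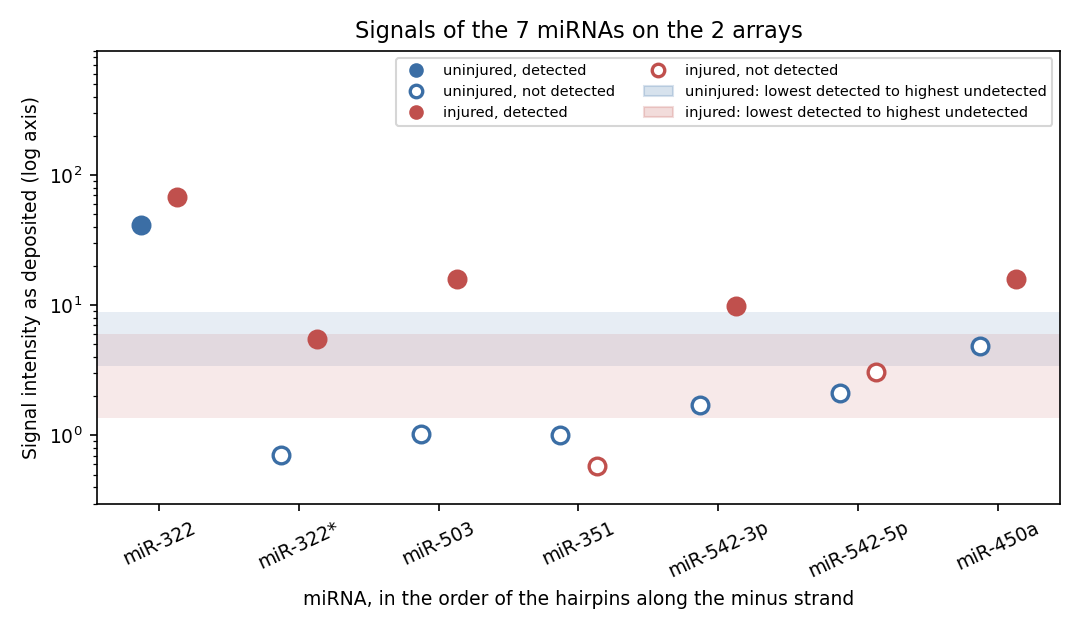
Deposited signal intensity (log axis) of the 7 miRNAs on the uninjured (blue) and injured (red) array, 1 array each. Filled points were detected and open points were not, and the bands run from the lowest detected to the highest undetected signal of each array. Injured signals of miR-503 (15.9), miR-450a (16.0) and miR-542-3p (9.85) stand above both bands, and that of miR-322* (5.51) lies inside them.

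In all, 1 member was detected on both arrays, 4 on the injured array only, none on the uninjured array only, and 2 on neither. Over all 350 miRNAs, 26 were detected on the injured array only, which is 7.43%. Since the members were chosen for that pattern, these counts, and those that follow, are given side by side without further reading. At least 2-fold higher by ratio or bound were 3 of the 5 detected members (miR-503, miR-450a and miR-542-3p), beside 33 of the 192 miRNAs detected on either array (17.2%). The 3 stayed at least 2-fold higher under each of 6 scalings, under which the share of the 192 fell to 15.6% without scaling, 12% with quantile normalization, 8.85% with the medians aligned, 8.33% with the control features aligned and likewise 8.33% when the 75th percentile was taken over every miRNA. At a threshold of 1.5-fold all 5 detected members were higher, beside 57 of the 192 (29.7%). When only signals above an array's highest undetected one counted as detected, 3 members (miR-503, miR-450a and miR-542-3p) were detected on the injured array alone, beside 22 of the 350 miRNAs (6.29%). With the highest undetected signal as the limit for the bounds, no member was at least 2-fold higher, beside 25 of the 192 (13%). With the brightest negative control as the limit, 27 of the 192 (14.1%) were at least 2-fold higher. Among the members, miR-503 (2.06-fold) and miR-450a (2.08-fold) were, while miR-542-3p was not (1.28-fold).

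**Figure D3:**
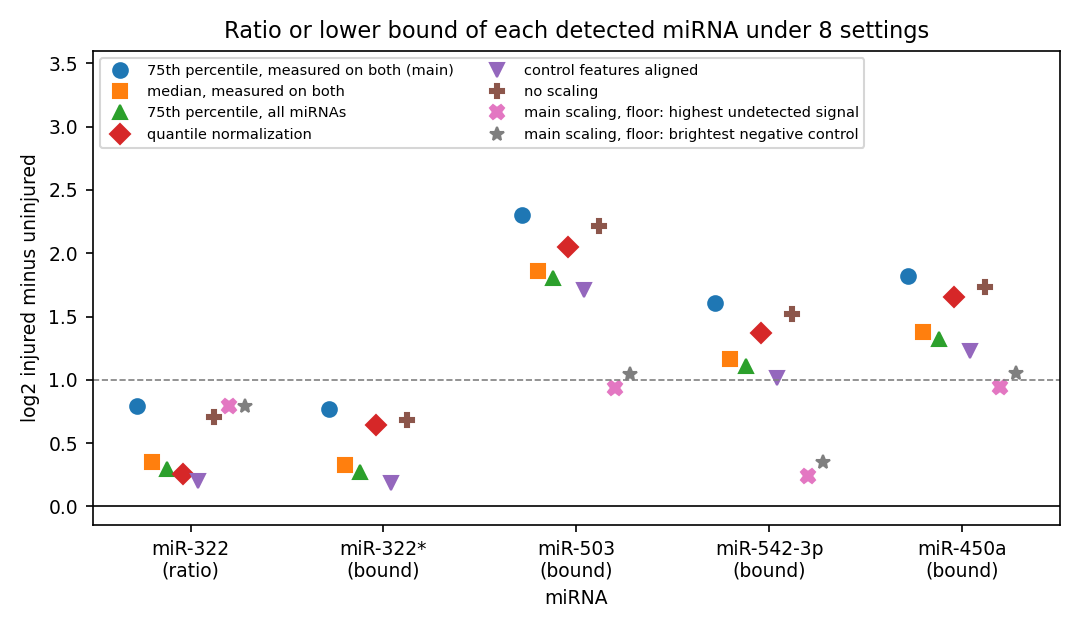
Log2 ratio (miR-322) or lower bound (the other 4) of injured minus uninjured for each detected miRNA under 6 scalings and, with the main scaling, 2 other limits for an undetected signal; the dashed line is 2-fold. All points shown are above 0, but a bound was kept only if above 0. miR-503 and miR-450a fall to 0.93 and 0.95 with the highest undetected signal as the limit. miR-322* has no point for either other limit, since no bound above 1-fold remained there.

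Members of the family with the seed of miR-322 differed from each other in their ratios. Among the seed relatives of miR-322, miR-15b had signals of 126 and 298 and was 2.51-fold higher after injury. Its log2 ratio was 1.33, and 0.74 under the lowest of 6 scalings. miR-16 was 1.45-fold higher, with signals of 1739 and 2372, but its log2 ratio turned to -0.055 with the control features aligned. miR-195 and miR-497, which are made from 1 cluster of their own, were both at a log2 ratio of -0.15. Under the lowest of 6 scalings both were at -0.74. Signals were 954 and 809 for miR-195, and 716 and 605 for miR-497. The family thus held values on both sides of 0, with miR-15b and miR-322 above 0 under each of the 6 scalings. The seed of miR-503 matches theirs at 6 of 7 bases. Its bound could not fall below 0, since a bound was kept only if above 0. For miR-351, the relatives with its seed were detected on both arrays. miR-125b-5p had signals of 5157 and 4763 (log2 ratio -0.03, and -0.62 under the lowest of 6 scalings). miR-125a-5p had 206 and 222 (log2 ratio 0.20, and -0.39 with the control features aligned).

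**Figure D4:**
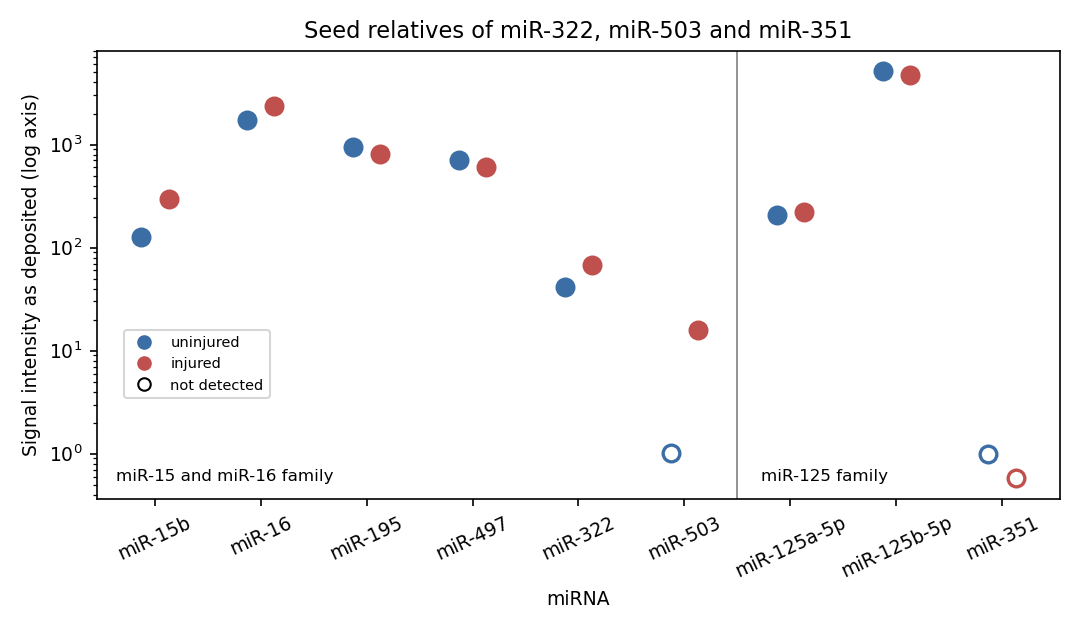
Deposited signal intensity (log axis) of the miR-15 and miR-16 family with miR-322 and miR-503, and of the miR-125 family with miR-351, on the uninjured (blue) and injured (red) array; open points were not detected. Heights of different miRNAs are not comparable because their probes differ. miR-15b (126 and 298), miR-322 (41.7 and 67.9) and miR-503 (1.02 and 15.9) are higher on the injured array, and miR-195 and miR-497 are slightly lower.

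Other hairpins and clusters give the setting for these detections. On the array, 55 hairpins had a row for each arm. In 4 of them, Mir322, Mir21, Mir338 and Mir760, 1 arm was detected on both arrays and the other on the injured array only. In 2, Mir542 and Mir34c, 1 arm was detected on the injured array only and the other on neither. Of 22 genomic clusters with at least 3 array rows, built by joining hairpins within 10 kb on the same strand, the miR-322 cluster had 4 rows detected on the injured array only. Among the other 21 clusters the highest number was 2, in the clusters of miR-134, miR-18a and miR-34b, and 17 had none. The miR-34b cluster had the higher share, with 2 of 3 rows (66.7%) against 4 of 7 (57.1%) for the miR-322 cluster. The other 4 clusters on the X chromosome had 21 rows, of which 7 were detected on both arrays, 14 on neither, and none on the injured array only. Of those 7, the 3 rows miR-17-5p, miR-19b and miR-92a have hairpins on more than 1 chromosome and were also counted in the miR-18a cluster. The miR-322 cluster was chosen for its count, so its place in this order is not a result.

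**Figure D5:**
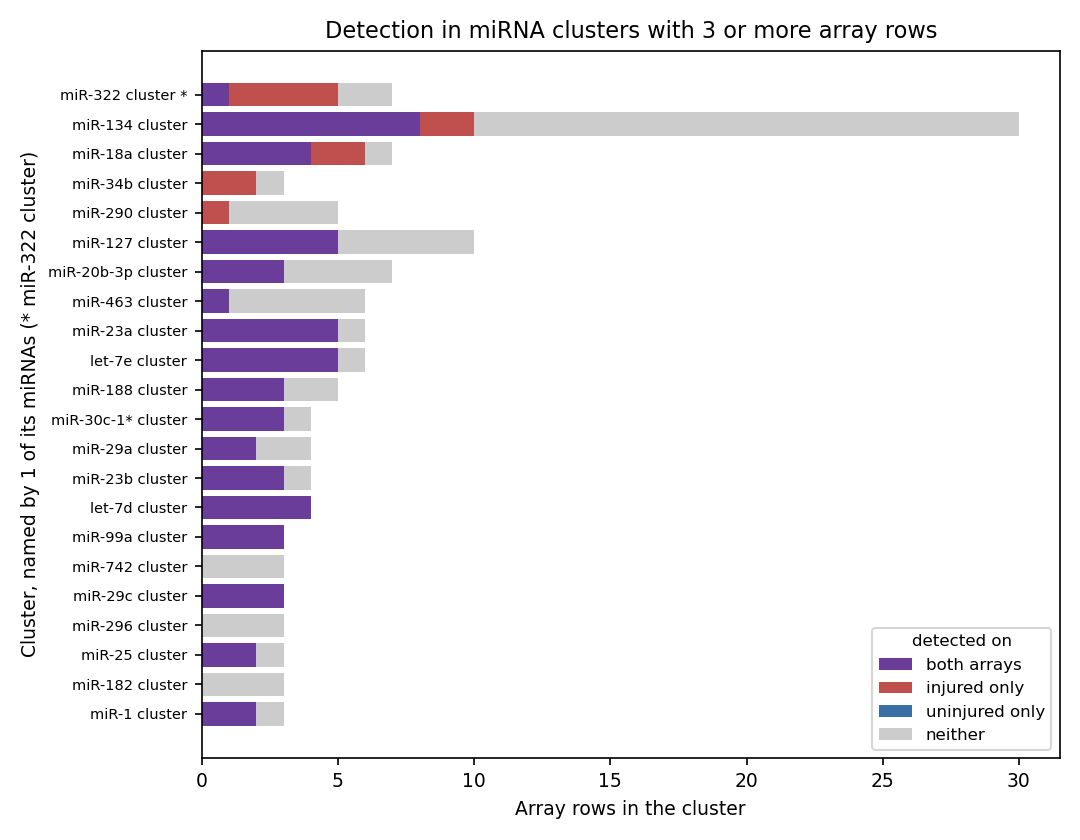
Number of array rows in each of the 22 miRNA clusters, split by the arrays on which the row was detected; a cluster is named by 1 of its miRNAs. The miR-322 cluster (starred) has 4 of 7 rows detected on the injured array only, the miR-34b cluster 2 of 3, and 17 clusters have none.

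Markers of leukocytes and red cells also differed between the arrays. The smooth muscle miRNAs miR-143 and miR-145 were detected on both, as the tissue label requires. Their deposited signals, uninjured and injured, were 17014 and 13992 for miR-143, and 735 and 473 for miR-145. The sums below are of deposited, unscaled signals, in which brighter probes weigh more. All 4 leukocyte miRNAs were detected on both arrays and their summed signal was 213 uninjured and 486 injured, with miR-142-5p, miR-142-3p and miR-223 higher and miR-150 lower. The erythroid miR-451 and miR-144 summed to 677 and 125, and the endothelial miR-126 and miR-126* to 626 and 615. The striated muscle miR-206 and miR-208 and the hepatocyte miR-122 were detected on neither array, with miR-208 and miR-122 listed at 1 on both. The part of cell composition in the signals of miR-503, miR-450a, miR-542-3p and miR-322 was not tested. In RNA from a whole artery, more cells that make a miRNA and more of it per cell cannot be told apart.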

How the data were processed

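The authors deposited 1 linear signal intensity and 1 flag (0 or 1) for each of 350 rat miRNAs and 22 control features on each of 2 one-colour arrays, with Cy3 labelling by Agilent's miRNA kit per the labels' protocols. The sources used here give no scanner software, background subtraction or normalization. The flag is not defined in the files and was read as detection, being 0 on all 7 negative controls. The deposited value table holds a ratio of the injured to the uninjured intensity, equal to that of the array files within 0.0001 for all 349 shared names, and so without scaling between arrays.

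Log2 intensities were scaled to the 75th percentile of the 158 miRNAs detected on both arrays (Python 3.11.15, numpy 2.4.6). A 2-fold difference is a descriptive threshold. With 1 array per group no test was run, and precision is limited by the number of arrays. RefSeq (GRCr8) matched 304 of 350 names to a hairpin. The named miRNAs are the 7 members, their seed relatives, cell type markers and cluster neighbours; clusters and hairpins that are counted are also named. The rule also named miRNAs near 2 members in injured signal, which are left out because signals of different probes are not comparable. Members and lists were chosen with earlier results of these data known. Alternatives were 5 other scalings, other limits for undetected signals, a 1.5-fold threshold and the flag ignored. No array or column was left out.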

Additional observations from a re-analysis of the deposited data

Results flagged for a closer look

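The control features took no part in the scaling used, and 6 of 22 were detected on both arrays. All 6 were brighter on the injured array, by 1.24-fold to 1.94-fold, with a median unscaled log2 ratio of 0.50, beside 0.05 for the 158 miRNAs detected on both. They stand out as signal outside the comparison of miRNAs. Aligning the arrays at them gave a log2 ratio of 0.20 for miR-322 and lower bounds of 1.71 for miR-503, 1.23 for miR-450a, 1.02 for miR-542-3p and 0.18 for miR-322*.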

How the results depend on the processing

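The ratio of miR-322 stayed above 0 in every alternative. The limits for undetected signals could not change it, because miR-322 was detected on both arrays. Among its seed relatives, miR-15b also stayed above 0 under each scaling. miR-16 turned negative with the control features aligned, and miR-195 and miR-497 were below 0 under each scaling. miR-125a-5p, a seed relative of miR-351, also turned negative with the control features aligned. For members detected on the injured array only, a bound was kept only if above 0. Such a bound could be lost but not reversed. The stricter limits were combined with the main scaling only. For the 5 detected members 38 ratios or bounds were recomputed, of which 33 kept their side of the 2-fold threshold and 5 did not. Some of the 33 could not change, such as those of miR-322 with other limits or with the flag ignored. miR-322* lost its bound in 2 further cases. With the highest undetected signal the log2 bounds fell to 0.93 for miR-503, 0.95 for miR-450a and 0.24 for miR-542-3p. Then 0 members were at least 2-fold higher, beside 25 of the 192 miRNAs detected on either array (13%). With the brightest negative control as the limit, chosen after seeing the data, the bound of miR-542-3p was 0.35. The negative control limit left 2 members at least 2-fold higher, beside 27 of the 192 (14.1%). With the flag ignored the log2 ratio was 4.04 for miR-503, 3.05 for miR-322*, 2.61 for miR-542-3p, 1.82 for miR-450a and 0.79 for miR-322. For miR-542-5p and miR-351, undetected on both arrays, it was 0.63 and -0.70. With a 1.5-fold threshold 5 members were higher, beside 57 of the 192 (29.7%). With the flag used, miR-351 and miR-542-5p had no ratio under any scaling. The other scalings shifted the log2 ratios by medians of -0.09 to -0.59. Because most did so by 1 constant, a kept direction adds little. No paired analysis was possible because each group held 1 array, and no array could be left out for the same reason. Low signal near the detection limit restricts 4 of the 5 detected members to bounds.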
